A study of Homo sapiens with 4 samples.

Results

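The clustered protocadherin genes lie in tandem on the long arm of chromosome 5. The locus was taken from position 140150001 to 140910000 of hg19, a stretch of 760 kb that holds the alpha, beta and gamma clusters. The deposited table of 5hmC-Seq reads lists 956365 windows of 500 bp, of which 48027 are on chromosome 5 and 195 are within these bounds. The locus contains 1520 such windows, so that 12.8% were listed (95% Wilson interval, 11.2% to 14.6%). Over the genome 16.7% of windows were listed.

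The samples were FADU cells, an established line of human hypopharyngeal squamous cell carcinoma. There were 4 conditions with 1 library each. Cells carried a scrambled control or a knockdown of TET1 (TET1-si in the labels), which the methods describe as short hairpin RNAs delivered by lentivirus, and were kept in normoxia or at 1% oxygen. The labels give 18 h of hypoxia for the scrambled control and 19 h for TET1-si. The 4 columns of values have names that match no library, so that hypoxia could not be compared with normoxia nor TET1 knockdown with the control. The report therefore rests on the positions of the listed windows. Being listed ties a window to no condition, and a window missing from the table may still have had reads. The titles name the assay as hMeDIP-seq, whereas the protocol of the labels describes an antibody against 5-methylcytidine and the methods of the study describe chemical labelling of 5hmC. Which of the marks the reads carry was not tested. The methods of the study give only a minimum number of reads per sample, and the depth of each library is unknown here.

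Protocadherins are cadherin-like adhesion proteins of the cell surface, best known from neurons, where each cell uses its own combination of isoforms. In the alpha and gamma clusters each isoform has its own promoter and its own large first exon, which encodes the extracellular cadherin repeats and the membrane span. This exon is spliced to constant exons at the end of the cluster that encode a shared cytoplasmic part. Beta isoforms have no constant exons. The C-type isoforms PCDHAC1, PCDHAC2, PCDHGC3, PCDHGC4 and PCDHGC5 differ in sequence from the others and are used more uniformly across neurons. Most of the promoters share a conserved sequence element with the core CGCT, near which CTCF is known to bind, and DNA methylation of these promoters is known to accompany their silencing. TET1 oxidises 5-methylcytosine to 5-hydroxymethylcytosine.

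The annotation (GENCODE version 44, lifted to GRCh37, which has the coordinates of hg19 on this chromosome) holds 53 coding isoforms, 15 in the alpha cluster, 16 in the beta cluster and 22 in the gamma cluster. The conserved element is shown first, because it marks the promoters around which the windows are counted. In the 250 bp upstream of the transcript start, the most shared word of 8 letters that ends in CGCT was ATGTCGCT for PCDHA1 to PCDHA13, found in 10 of these 13 isoforms. It was GTGGCGCT in 13 of 16 beta isoforms and GCGCCGCT in 10 of the 19 gamma isoforms that are not C-type. Searched on both strands, these words were in 0.232%, 1.25% and 3.42% of the same 250 bp of 19862 protein-coding genes. The core CGCT alone was in 50 of the 53 isoforms on either strand, and in 77.3% of all these promoters. The following stretches of the plus strand of GRCh37 show the word in capitals with 16 bp on either side, for 3 isoforms of each cluster that differ in the number of listed windows:
PCDHA1 (chr5:140165667-140165706): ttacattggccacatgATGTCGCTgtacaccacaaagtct
PCDHA10 (chr5:140235422-140235461): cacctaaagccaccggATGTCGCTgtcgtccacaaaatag
PCDHA12 (chr5:140254825-140254864): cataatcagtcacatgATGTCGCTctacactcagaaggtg
PCDHB7 (chr5:140552143-140552182): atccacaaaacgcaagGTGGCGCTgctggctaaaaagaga
PCDHB2 (chr5:140474125-140474164): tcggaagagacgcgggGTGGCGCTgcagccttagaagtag
PCDHB15 (chr5:140624878-140624917): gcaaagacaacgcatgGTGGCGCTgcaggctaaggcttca
PCDHGA1 (chr5:140709966-140710005): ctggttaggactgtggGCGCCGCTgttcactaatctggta
PCDHGA7 (chr5:140762212-140762251): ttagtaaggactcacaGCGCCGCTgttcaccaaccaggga
PCDHGA8 (chr5:140772131-140772170): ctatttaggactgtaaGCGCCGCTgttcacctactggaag

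The stretches are shown only for isoforms that hold the word of their cluster. The word was not found in these 250 bp of PCDHA13 and PCDHGA12, the isoforms with most listed windows in alpha and gamma, nor in PCDHGB7. The word was also missing from PCDHA9, PCDHGA2, PCDHGB2 and PCDHGB3, which had no listed window in the first exon. PCDHA11, PCDHB1, PCDHB6, PCDHB8, PCDHGA3, PCDHGA4, PCDHGA5 and PCDHGA6 lacked it too and had 1 to 3. No word was chosen for the C-type isoforms. Among the isoforms shown, PCDHA1, PCDHB7, PCDHB15, PCDHGA1 and PCDHGA7 had no listed window in the first exon, whereas PCDHA10 and PCDHGA8 had 4 each, PCDHB2 had 2 and PCDHA12 had 1. The median position of the first base of the word was -55.5 for alpha, -66 for beta and -68 for gamma isoforms, counted from the transcript start. The promoters held few CpG sites. The median was 5 per 250 bp for PCDHA1 to PCDHA13, 6 for beta and 4 for the other gamma isoforms, against 13 for the C-type isoforms. PCDHGC5 was the exception among these with 3. PCDHA6 and PCDHA7 carry no canonical tag in the annotation, and the start given for PCDHA7 is its start codon, so that its upstream bases include part of its transcript.

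The isoform exons were denser in CpG sites than the rest of the locus, with a mean of 23.4 per 500 bp window against 4.11 in windows in no exon. The first 300 coding bases are shown for an isoform with no listed window in the first exon and for the one with most listed windows of the same cluster, with CpG sites in capitals (GRCh37, plus strand):
PCDHA1 (chr5:140165876-140166175): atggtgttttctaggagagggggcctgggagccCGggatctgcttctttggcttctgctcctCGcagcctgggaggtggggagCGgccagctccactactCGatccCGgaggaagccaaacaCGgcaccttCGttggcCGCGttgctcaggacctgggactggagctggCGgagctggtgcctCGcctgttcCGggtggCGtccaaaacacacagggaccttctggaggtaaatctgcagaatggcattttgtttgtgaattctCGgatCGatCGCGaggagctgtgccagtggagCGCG
PCDHA13 (chr5:140261854-140262153): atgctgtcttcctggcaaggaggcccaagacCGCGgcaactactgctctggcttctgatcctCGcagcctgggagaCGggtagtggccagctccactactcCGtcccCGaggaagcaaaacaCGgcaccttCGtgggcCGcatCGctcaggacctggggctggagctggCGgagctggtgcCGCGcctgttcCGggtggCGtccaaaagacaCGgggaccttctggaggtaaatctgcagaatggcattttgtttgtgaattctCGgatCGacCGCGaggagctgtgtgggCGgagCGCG
PCDHB7 (chr5:140552417-140552716): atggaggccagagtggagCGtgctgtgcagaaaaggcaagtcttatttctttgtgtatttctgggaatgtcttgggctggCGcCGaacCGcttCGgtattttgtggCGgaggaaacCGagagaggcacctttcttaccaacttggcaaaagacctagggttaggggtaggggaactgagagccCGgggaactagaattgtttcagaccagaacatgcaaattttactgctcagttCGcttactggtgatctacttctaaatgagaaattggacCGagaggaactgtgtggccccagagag
PCDHB2 (chr5:140474375-140474674): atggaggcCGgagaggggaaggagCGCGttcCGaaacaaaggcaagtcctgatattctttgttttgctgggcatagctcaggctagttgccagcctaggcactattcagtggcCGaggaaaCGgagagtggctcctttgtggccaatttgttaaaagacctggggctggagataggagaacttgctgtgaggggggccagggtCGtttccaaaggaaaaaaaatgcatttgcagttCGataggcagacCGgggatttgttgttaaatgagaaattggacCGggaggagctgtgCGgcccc
PCDHGA7 (chr5:140762467-140762766): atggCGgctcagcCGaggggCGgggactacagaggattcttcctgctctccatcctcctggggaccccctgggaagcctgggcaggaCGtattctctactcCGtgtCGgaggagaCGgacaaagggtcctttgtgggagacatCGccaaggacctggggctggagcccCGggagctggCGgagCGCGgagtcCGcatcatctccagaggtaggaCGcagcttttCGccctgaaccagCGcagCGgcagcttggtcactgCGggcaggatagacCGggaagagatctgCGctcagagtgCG
PCDHGA12 (chr5:140810327-140810626): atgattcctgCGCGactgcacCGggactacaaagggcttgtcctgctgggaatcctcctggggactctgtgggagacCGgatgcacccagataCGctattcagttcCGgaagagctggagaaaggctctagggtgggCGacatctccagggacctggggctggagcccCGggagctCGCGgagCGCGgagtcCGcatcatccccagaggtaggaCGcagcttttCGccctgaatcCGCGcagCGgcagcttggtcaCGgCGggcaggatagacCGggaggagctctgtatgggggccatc

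In the alpha pair 262 of 300 aligned positions were identical, with 19 CpG sites in PCDHA1 and 23 in PCDHA13. No window of the first exon of PCDHA1 was listed, and all 5 of PCDHA13 were. Of the 50 bp sequences in these exons, 93.6% were unique in the genome for PCDHA1 and 91.8% for PCDHA13. PCDHGA7 and PCDHGA12 each had 21 CpG sites in this stretch, and 0 of 5 and 5 of 6 of their windows were listed. PCDHB7 and PCDHB2 had 10 and 11 CpG sites, with 0 of 8 and 2 of 9 windows listed. Isoforms of like CpG number in this stretch thus stood at opposite ends of the range in alpha and gamma, where they were picked for their listed windows. Over all windows of the first exon PCDHA1 had 181 CpG sites and PCDHA13 had 183. PCDHGA7 had 96 and PCDHGA12 had 178, so that the gamma pair was alike only in this stretch. PCDHB7 had 154 and PCDHB2 had 178.

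The share of listed windows differed between the clusters. The listed share varies with CpG number and GC content genome-wide, so that each share was set against a prediction, the share listed among autosomal windows of the same CpG number and GC content. All intervals cover counting error only and take each window as an independent count, which adjacent windows are not. No test between clusters was made. Over the whole locus 17.8% of windows were predicted, and the ratio of listed to predicted was 0.720 (0.631 to 0.819). In the alpha cluster (chr5:140165721-140391932) 55 of 453 windows were listed, which is 12.1% and a ratio of 0.805 (0.626 to 1.03). In the beta cluster (chr5:140430959-140628933) 21 of 396 windows were listed, which is 5.30% and a ratio of 0.323 (0.213 to 0.486). In the gamma cluster (chr5:140710081-140892544) 93 of 365 windows were listed, which is 25.5% and a ratio of 1.01 (0.847 to 1.20). The intervals of beta overlap neither those of alpha nor those of gamma. In windows of unique sequence, given at the end, the beta ratio was 0.492 and its interval overlapped that of alpha.

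**Figure D1:**
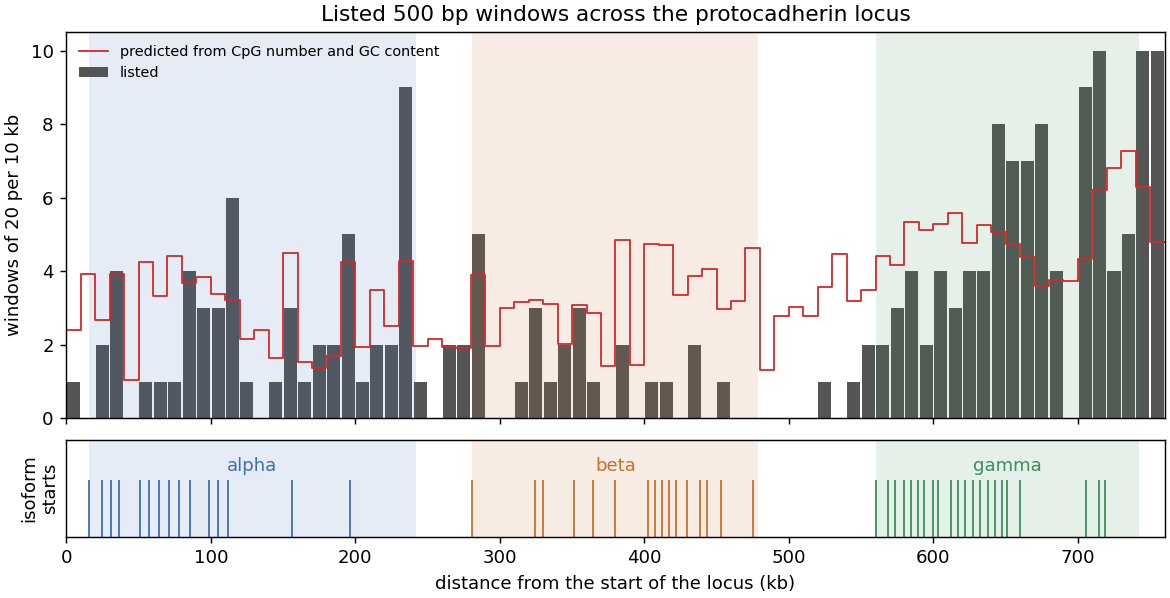
Number of listed 500 bp windows, of 20, in each 10 kb of the locus (bars) and the number predicted from CpG number and GC content (red line), against distance from the start of the locus in kb. Shading marks the alpha, beta and gamma clusters and the ticks are the isoform starts. The bars stay below the line through most of the beta cluster and the stretch after it. From 640 kb on most bars lie above the line, but those at 690 to 700 kb and 720 to 740 kb lie below it.

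Between beta and gamma 4 of 162 windows were listed, a ratio of 0.161 (0.0631 to 0.404). TAF7, a subunit of the general transcription factor TFIID, and SLC25A2, a mitochondrial carrier of ornithine, lie in this stretch. TAF7 had 2 of 122 windows of the gene listed and SLC25A2 had 0 of 3 exon windows. The longest stretch without a listed window, 148 windows or 74 kb, ran from 140603501 to 140677500, from the end of the beta cluster into TAF7. After the gamma cluster 15 of 35 windows were listed, a ratio of 1.64 (1.07 to 2.26). This end holds the part of DIAPH1, a formin that nucleates actin filaments, that is inside the bounds, with 13 of 31 windows listed. In the blocks of the same length on either side of the locus the ratios were 1.28 to 1.60 before it and 1.46 to 1.82 after it. Among 228 blocks of this length on chromosome 5, 107 had a lower ratio than the locus, and the median was 0.746. The locus was thus near the median of the chromosome, and the 6 neighbouring blocks were all higher.

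The windows of the isoform exons were listed in 82 of 324 cases, or 25.3%, a ratio of 0.765 (0.631 to 0.916). Windows in no annotated exon were listed in 78 of 1019 cases, or 7.65%, a ratio of 0.593 (0.478 to 0.732). In the first 2500 bp of the isoforms 26 of 75 windows were listed in alpha, with a ratio of 0.998 (0.716 to 1.32). The beta isoforms had 12 of 80, with a ratio of 0.417 (0.245 to 0.679), and the gamma isoforms 41 of 110, with a ratio of 0.940 (0.726 to 1.17). Alpha and gamma first exons were therefore listed about as often as their composition predicts, and beta exons less often. Among the clusters the interval excludes 1 for beta only. The prediction takes no account of repeated sequence. On average 81.8% of the 50 bp sequences of the beta exons were unique, against 86.5% in alpha and 92.3% in gamma. The part of this in the counts was not tested. For protein-coding genes the share in the first 2500 bp was 37.9%, with a ratio of 1.19. This ratio lies above the ratio intervals of beta and gamma and inside that of alpha. The share of 37.9% lies inside the share intervals of alpha (24.9% to 45.9%) and gamma (28.8% to 46.6%). It lies above that of beta (8.79% to 24.4%). The protocadherins outside the clusters had 12 of 55 windows listed, a ratio of 0.598 (0.355 to 0.942). Their interval also excludes 1, so that a low ratio was not seen in beta alone. These genes include PCDH11X and PCDH19 on chromosome X, each with 0 of 5 windows listed, whereas the prediction came from autosomal windows. The ratio without these genes was not computed.

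Beta was also lowest among CpG-dense windows, where the part of repeated sequence was not tested. Windows with some repeated sequence held a mean of 17.1 CpG sites in beta, against 4.40 in windows of unique sequence. In alpha the means were 15.7 and 5.01, and in gamma 14.8 and 10.1. Among windows with 20 or more CpG sites, 25 of 63 were listed in alpha, 6 of 51 in beta and 36 of 77 in gamma, with ratios of 1.10 (0.791 to 1.44), 0.322 (0.151 to 0.640) and 1.18 (0.909 to 1.46). In the locus as a whole 34.7% of these windows were listed, against 37.7% predicted, a ratio of 0.921 (0.753 to 1.10), and 44.4% on all autosomes. Windows with 5 to 19 CpG sites were listed in 19.0% of cases in the locus, against 29.1% predicted, a ratio of 0.653 (0.542 to 0.780). Windows with 1 or 2 CpG sites were listed in 4 of 445 cases, or 0.899%, against 4.91% predicted. Other classes were nearer to the prediction, with 11.1% listed and 11.6% predicted for 3 or 4 CpG sites. For 30 to 39 CpG sites 43.8% were listed and 39.7% predicted.

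Of the 53 isoforms, 12 had the transcript start in a listed window, or 22.6% (13.5% to 35.5%). Among protein-coding genes the share was 26.7%, so that the count is near the background. From composition 31.1% was predicted for the isoforms and 34.8% for the genes, which gives ratios of 0.727 and 0.767. The 12 listed starts are named here by cluster. These were 4 alpha, 2 beta and 6 gamma isoforms. The 4 alpha isoforms were PCDHA12, PCDHA13, PCDHAC1 and PCDHAC2, the last 4 of the cluster. The beta isoforms were PCDHB1, the first of the cluster, and PCDHB3. The gamma isoforms were PCDHGB1, PCDHGA8, PCDHGA11, PCDHGA12, PCDHGC4 and PCDHGC5. The start window of PCDHGC3, the remaining C-type isoform, was not listed, although the window on either side of it was.

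**Figure D2:**
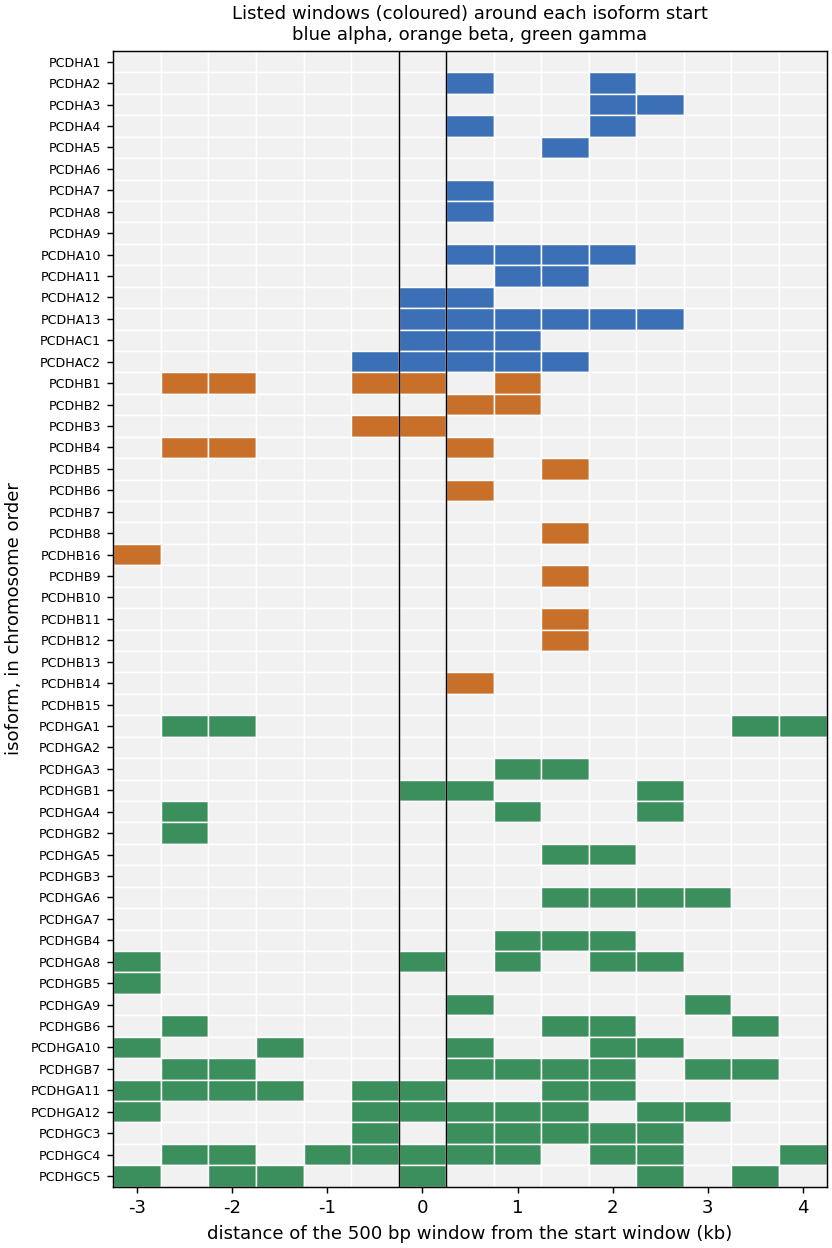
Each row is an isoform in chromosome order and each cell a 500 bp window, placed by its distance in kb from the window that holds the transcript start (between the black lines). Coloured cells are listed windows, blue for alpha, orange for beta and green for gamma. Listed windows lie mostly from the start onwards in alpha, are sparse in beta, and lie on both sides in the last gamma isoforms.

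In the 3000 bp upstream of the starts 3 of 90 windows were listed in alpha, or 3.33%, with 10.5% predicted and a ratio of 0.317 (0.108 to 0.889). In beta these were 7 of 96, or 7.29%, with 11.1% predicted and a ratio of 0.654 (0.321 to 1.28). In gamma these were 26 of 132, or 19.7%, with 18.5% predicted and a ratio of 1.07 (0.747 to 1.48). For protein-coding genes the share was 38.4%, a ratio of 1.32. The ratio of these genes lies above the intervals of alpha and beta and inside that of gamma. The interval excludes 1 for alpha only. All 3 windows of alpha belonged to the last 500 bp before a start, those of PCDHA12, PCDHAC1 and PCDHAC2. Windows were placed by their midpoint, so that a start window can count as upstream. For PCDHA12 and PCDHAC1 the upstream window was the listed start window itself. In the first 500 bp after the start 8 of 15 alpha windows were listed, or 53.3%, with 34.7% predicted. For beta these were 3 of 16, or 18.8%, with 38.4% predicted, and for gamma 7 of 22, or 31.8%, with 40.6% predicted. Between 2000 and 2500 bp downstream no beta window was listed, with 39.4% predicted. An upstream stretch in the gamma cluster can reach into the exon of the isoform before it.

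**Figure D3:**
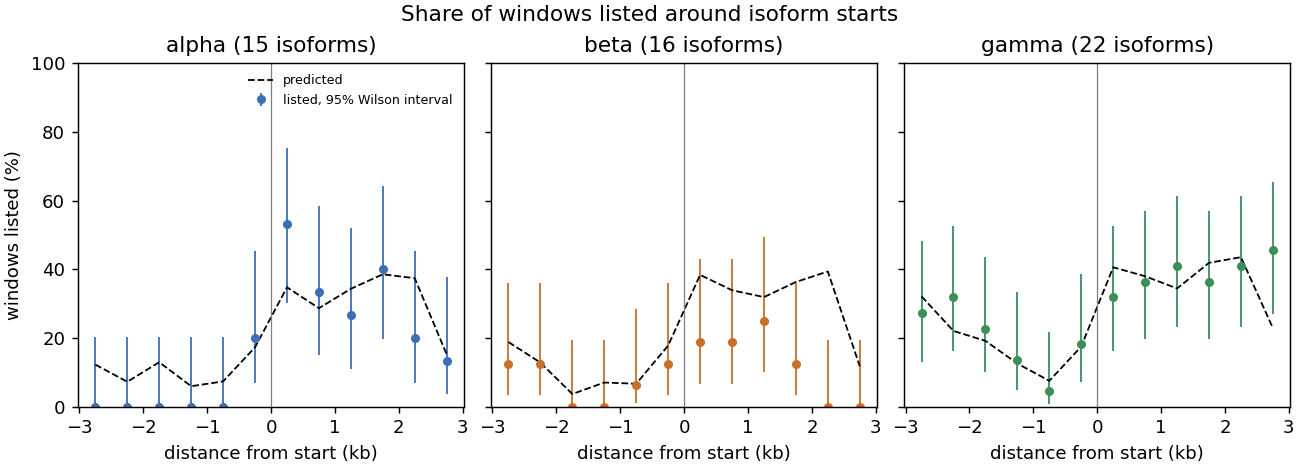
Share of 500 bp windows listed (points, with 95% Wilson intervals) and predicted from CpG number and GC content (dashed line), against distance from the transcript start in kb, for alpha, beta and gamma isoforms. The alpha points are at 0 until the last 500 bp before the start, where they rise to 20%, and reach 53.3% after it. The beta points downstream of the start stay under the line, at 0% to 25%.

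Among the first exons of the alpha cluster PCDHA13 had 5 of 5 windows listed, PCDHA10 4 of 5 and PCDHAC2 4 of 6. PCDHA1, PCDHA6 and PCDHA9 had none. For PCDHA6 and PCDHA9, 66.8% and 66.6% of the 50 bp sequences of the exon were unique, the repeats being elsewhere in the locus, and the part of this in their count was not tested. The listed windows of PCDHA13 form a run of 6 from 140261501 to 140264500, one of the 2 longest in the locus. In the beta cluster PCDHB2 had 2 windows listed and all others 1 or none. PCDHB7, PCDHB16, PCDHB10, PCDHB13 and PCDHB15, the last of the cluster, had none. Their unique share ran from 68.5% for PCDHB10 to 90.3% for PCDHB7. In the gamma cluster PCDHGA12 had 5 of 6 windows listed, and PCDHGA8, PCDHGB7, PCDHGC3 and PCDHGC4 had 4. PCDHGA1, the first of the cluster, PCDHGA2, PCDHGB2, PCDHGB3, PCDHGA7 and PCDHGB5 had none. Exons without a listed window included PCDHGB3, whose sequence was 100% unique. The remaining isoforms had 1 to 3 listed windows.

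The isoforms of alpha and gamma with many listed windows lay towards the downstream end of each cluster. This split at the middle isoform was chosen after the values were seen and is given with no test. In the first 2500 bp, 7 of 35 windows were listed from PCDHA1 to PCDHA7 (20%, ratio 0.610) and 19 of 40 from PCDHA8 to PCDHAC2 (47.5%, ratio 1.30). For gamma these were 13 of 55 from PCDHGA1 to PCDHGB4 (23.6%, ratio 0.607) and 28 of 55 from PCDHGA8 to PCDHGC5 (50.9%, ratio 1.26). Start windows were listed in 0 of 7 and 4 of 8 alpha isoforms, and in 1 of 11 and 5 of 11 gamma isoforms. Counted over windows with at least 90% unique positions, an alternative added after the data were seen, the listed shares were 11.8% and 52% in alpha and 23.3% and 54.3% in gamma.

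**Figure D4:**
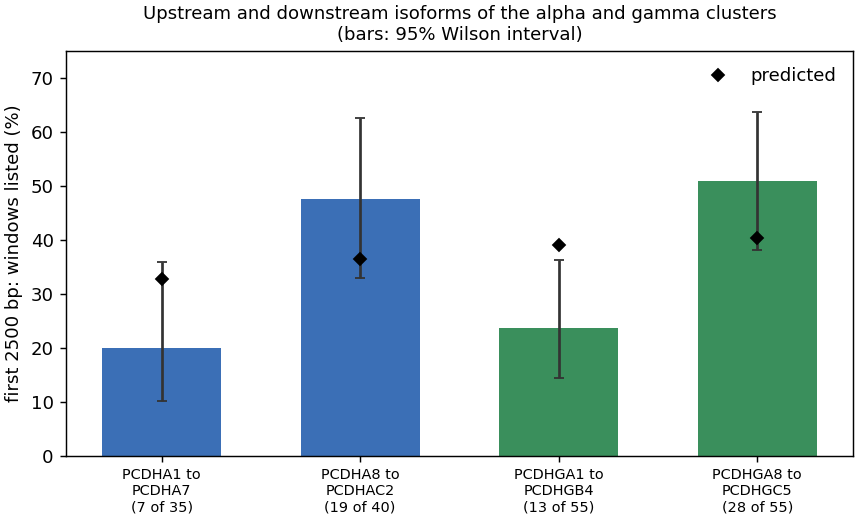
Share of windows in the first 2500 bp of the isoforms that were listed, in percent, for the upstream and the downstream isoforms of the alpha (blue) and gamma (green) clusters, with listed and total windows under each bar. Error bars are 95% Wilson intervals and diamonds the predicted share, which lies above the bar for the upstream isoforms and below it for the downstream isoforms.

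The C-type isoforms, all in the downstream parts, had 16 of 28 first-exon windows listed, a ratio of 1.30 (0.887 to 1.67). For the other alpha and gamma isoforms these were 54 of 165, a ratio of 0.901 (0.717 to 1.11), and the intervals overlap. PCDHAC1 had 2 listed windows, PCDHAC2, PCDHGC3 and PCDHGC4 had 4 each, and PCDHGC5 had 2. PCDHAC2, PCDHGC3 and PCDHGC4 each lay in a run of 5 listed windows. All 50 bp sequences of the C-type exons were unique.

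The constant exons differed in length and listing. The last constant exon of gamma (chr5:140890514-140892542), which encodes the end of the shared cytoplasmic part and the 3′UTR, overlapped 5 windows, all listed, inside a run of 6 from 140890001 to 140893000. The last constant exon of alpha (chr5:140389212-140391932) overlapped 6 windows, of which 3 were listed. Of the short constant exons before them, the one at 140874374 was in a listed window and those at 140358534, 140362060 and 140884960 were not.

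The pseudogenes in the clusters ranged from none to most of their windows. PCDHA14 had 2 of 4 exon windows listed, PCDHB17P 1 of 5, PCDHB19P 0 of 5, PCDHGB8P 1 of 5 and PCDHGB9P 3 of 4. No exon window of PCDHB18P was listed. Over these pseudogenes 7 of 28 windows were listed, a ratio of 0.768 (0.389 to 1.33). Of 11 protocadherins outside the clusters, PCDH9, PCDH12 and PCDH20 had the start in a listed window, which is 27.3% and at the background of 26.7%. PCDH1, PCDH7, PCDH8, PCDH10, PCDH11X, PCDH17, PCDH18 and PCDH19 did not. From composition 42.2% was predicted for these start windows, inside the wide interval of 9.75% to 56.6%. In the 3000 bp upstream of the start PCDH1 and PCDH12 had 3 of 6 windows listed, PCDH20 had 4, PCDH8 had 1 and the other 7 genes none. Over the 11 genes these were 11 of 66 windows, or 16.7%, with 30.5% predicted and a ratio of 0.547 (0.314 to 0.90). This includes PCDH11X and PCDH19 on chromosome X, each with 0 of 6 windows listed, whereas the prediction came from autosomal windows. The ratio without PCDH11X and PCDH19 was not computed.

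The isoforms resemble each other in sequence, and reads that match several places were not kept. Of the 1520 windows, 990 held only 50 bp sequences that occur once in the genome, and 12.9% of these were listed, a ratio of 0.916 (0.778 to 1.07). Of the 530 windows with repeated sequence 12.6% were listed, a ratio of 0.511 (0.407 to 0.636). These listed shares were alike, with 24.8% predicted for windows with repeated sequence and 14.1% for the others. Where under 50% of the 50 bp sequences were unique, 1 of 49 windows was listed, or 2.04%. There 27.3% was predicted, a ratio of 0.0748 (0.0132 to 0.392). In windows with repeated sequence the ratio was 0.707 (0.493 to 0.992) in alpha, 0.208 (0.106 to 0.395) in beta and 0.756 (0.542 to 1.02) in gamma. The part of repeated sequence in these counts was not tested. The prediction takes no account of repeated sequence elsewhere in the genome. In windows of unique sequence the ratio was 0.919 (0.648 to 1.29) in alpha, 0.492 (0.290 to 0.823) in beta and 1.20 (0.967 to 1.46) in gamma. The interval of beta then overlapped that of alpha but not that of gamma. With at least 90% unique positions the ratios were 0.881 (0.655 to 1.17) in alpha, 0.431 (0.263 to 0.697) in beta and 1.09 (0.891 to 1.31) in gamma, with the same overlap.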

How the data were processed

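Cells of 4 conditions were sequenced with 1 library each. According to the submitters' processing notes and the methods of the study, the authors aligned 50 bp single-end reads to hg19 with Bowtie 0.12.7, kept reads that map to one place and one read per position, and counted them in 500 bp windows with MEDIPS. The file name points to a minimum read count per window; the rule by which windows were kept was not tested. The deposited table gives the chromosome, start and stop of each window, plus 4 columns of library values with names that match no label. No step read these 4 columns, and no condition was compared. No value of depth or replicate spread was available from the columns used, so that precision is given by 95% Wilson intervals of window shares, which cover counting error only.

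A window was listed if it is in the table. CpG number (40 or more as 1 class) and GC content (steps of 25 bases) of each window came from GRCh37, and the predicted share was that of autosomal windows of the same class. Windows were assigned to exons by their midpoint. Every 50 bp sequence of the locus was counted in the genome on both strands by exact match. Isoforms are the canonical transcripts of GENCODE version 44 lifted to GRCh37 (2 isoforms without that tag took the transcript tagged as APPRIS principal). Intervals were computed with SciPy 1.17.1 and figures drawn with Matplotlib 3.10.9, in Python 3.11.15 with pandas 2.3.3 and NumPy 2.4.6. Coding sequences were aligned end to end with Biopython 1.88. The search for repeated 50 bp sequences was checked on random sequence with planted copies on both strands. Named isoforms are the C-type isoforms, PCDHB1, the first and last of each cluster, and those with most and fewest listed first-exon windows. The locus and the lists were chosen with earlier results of these data known.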

Additional observations from a re-analysis of the deposited data

How the results depend on the processing

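Of 45 alternative settings, 39 left a result within its interval or, for a count, within 1.5 times. The exceptions were these. The ratio of listed to predicted windows in the locus was 0.619 when predicted from CpG number alone, 0.916 in windows of unique sequence and 0.839 in windows with at least 90% unique positions, against 0.720. The beta ratio was 0.492 in windows of unique sequence, against 0.323, where its interval overlapped that of alpha, and the gamma ratio was 1.45 when set against all autosomal windows with no prediction, against 1.01. The number of isoforms with a listed start was 25 when either neighbouring window also counted, against 12, since more windows are counted. For the other exceptions the cause was not tested. The settings with 90% unique positions, the cluster ratios and the first 2500 bp were added after the data were seen. No paired analysis was possible because no column is matched to a library, of which there is 1 per condition. No replicate could be left out for the same reason. The depth of each library is unknown beyond the minimum given by the study, so that a window that is not listed may have had reads.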
